A study of Mus musculus with 4 samples.

Results

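Schlafen genes (Slfn) form a family of leukocyte and interferon response genes that lie side by side on mouse chromosome 11. Their expression was examined in primary myoblasts of Tet2 knockout (KO) and wild type (WT) mice. The members were 8 of the 24445 genes in the deposited expression table, namely Slfn1, Slfn2, Slfn3, Slfn4, Slfn5, Slfn8 and Slfn9, found by gene symbol, and the long noncoding RNA AI662270 next to them. They were selected on their Tet2 KO and WT values in this same table, so their differences are given as a description with no test. All 8 had a higher value in Tet2 KO than in WT, as did 48.8% of the genes with a mean of at least 1 FPKM. Slfn2 and AI662270 differed most among the members that reached a mean of 1 FPKM, at 3.65-fold and 4.01-fold, and Slfn9, the most abundant member, differed by 1.22-fold. FPKM stands for fragments per kilobase of transcript per 1000000 mapped fragments, a level per length that allows genes to be compared.

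Tet2 is an enzyme that oxidises methylated cytosine in DNA, and the study asked how expression differs in myoblasts without it. Both groups were C57BL/6 mice. WT mice carried no targeted allele, and Tet2 KO mice lacked exon 3 of Tet2 constitutively, so cells other than muscle cells lacked it too. The study's methods give male mice of 8 to 10 weeks unless stated otherwise. In the deposited values Xist, which is transcribed from the inactive X chromosome of females, had 67.7 FPKM in Tet2 KO against 59.5 in WT, and the Y-linked genes Ddx3y, Eif2s3y, Kdm5d and Uty were listed at 0 in both. Muscle stem cells (satellite cells) of the hindlimb were sorted on CD34 and integrin alpha 7, leaving out cells with Sca1, the endothelial protein CD31 or the leukocyte proteins CD45 and CD11b. They grew into myoblasts on collagen at 0.5 mg/ml in a medium named after T cells, for 3 days or more. Each group had 2 libraries. The labels do not say whether a library came from 1 mouse or from pooled mice. The table holds 1 value per gene and group, so no spread between libraries stands beside any value.

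Schlafen proteins are known from thymocytes, where they were first described as genes that are regulated during maturation and affect growth. Mouse members fall into a short, an intermediate and a long subgroup, and the long members carry a C-terminal region related to helicases. Many members are induced by type I interferon, and Slfn2 is known to keep T cells and monocytes quiescent. In the coding sequences of GENCODE vM1, Slfn1 and Slfn2 had 1014 and 1137 bases, Slfn3 and Slfn4 had 1554 and 1809, and Slfn5, Slfn8 and Slfn9 had 2655, 2733 and 2733. Length therefore sorted the members into the subgroups by which they are ordered here.

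The loci reported for the 8 members spanned 315332 bases of mm9, chr11:82724755-83040086. No gene outside the family reached 1 FPKM in this span except Unc45b at the Slfn5 locus. From the low end of the coordinates the order was Slfn5 at chr11:82724755-82778352, Slfn9 at chr11:82793805-82805332, Slfn8 at chr11:82815660-82834312, Slfn2 at chr11:82878614-82884180, Slfn1 at chr11:82930347-82936161, Slfn4 at chr11:82988688-83003718, Slfn3 at chr11:83004832-83028656 and AI662270 at chr11:83037078-83040086. Slfn8 and Slfn9 are transcribed from the minus strand and the other 6 from the plus strand. The locus reported for Slfn5 also covers Unc45b, a myosin chaperone gene, and the antisense gene Slfn5os, so it spans more than Slfn5 alone, which GENCODE vM1 places at chr11:82764851-82776443.

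Since interferon is a known inducer of this family, the 250 bases before each start were read from RefSeq promoter sequences of GRCm38.p6, a build other than the mm9 of the table. They were found for 7 of the 8 members, with 2 starts for Slfn8, and AI662270 had no entry. The core of the interferon-stimulated response element, GAAA followed by any 2 bases and GAAA again, was searched on both strands. It was present in Slfn5, Slfn8 and Slfn9, the long members, and in 2.98% of 32851 promoters of the same length. It was absent from these windows of Slfn1, Slfn2, Slfn3 and Slfn4. The sequences of the long and the short members are shown so that both kinds can be read, 5′ to 3′ on the strand of the gene, with the motif in capitals. The capitals in Slfn8 and Slfn9 are the motif as it reads on the opposite strand.
Slfn5, chr11:82951852-82952101 plus strand: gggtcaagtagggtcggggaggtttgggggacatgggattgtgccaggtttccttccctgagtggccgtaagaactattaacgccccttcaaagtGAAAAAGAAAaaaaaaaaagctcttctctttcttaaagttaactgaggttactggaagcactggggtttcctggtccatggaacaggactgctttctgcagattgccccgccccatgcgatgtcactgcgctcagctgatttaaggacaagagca
Slfn8, chr11:83020811-83021060 minus strand: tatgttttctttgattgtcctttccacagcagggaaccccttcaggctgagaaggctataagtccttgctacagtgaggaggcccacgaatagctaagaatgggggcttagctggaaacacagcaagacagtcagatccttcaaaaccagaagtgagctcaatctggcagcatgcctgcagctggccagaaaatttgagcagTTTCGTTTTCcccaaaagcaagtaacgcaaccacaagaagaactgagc
Slfn9, chr11:82991831-82992080 minus strand: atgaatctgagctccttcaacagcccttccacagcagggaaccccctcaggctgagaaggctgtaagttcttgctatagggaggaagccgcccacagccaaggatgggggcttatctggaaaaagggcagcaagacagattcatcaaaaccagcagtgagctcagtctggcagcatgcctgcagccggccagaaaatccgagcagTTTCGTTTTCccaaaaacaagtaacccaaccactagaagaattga
Slfn2, chr11:83064862-83065111 plus strand: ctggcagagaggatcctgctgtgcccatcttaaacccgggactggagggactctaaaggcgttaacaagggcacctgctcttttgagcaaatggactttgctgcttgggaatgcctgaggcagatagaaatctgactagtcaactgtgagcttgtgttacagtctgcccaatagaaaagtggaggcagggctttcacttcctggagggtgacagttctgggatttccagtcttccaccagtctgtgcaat
Slfn1, chr11:83116570-83116819 plus strand: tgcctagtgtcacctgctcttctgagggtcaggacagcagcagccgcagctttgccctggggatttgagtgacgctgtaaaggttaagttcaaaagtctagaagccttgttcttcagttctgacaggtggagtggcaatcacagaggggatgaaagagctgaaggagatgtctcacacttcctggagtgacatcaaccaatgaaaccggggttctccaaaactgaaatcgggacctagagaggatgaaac

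The motif began 155 bases before the start of Slfn5, 45 before that of Slfn9 and 48 before the start of Slfn8 shown, or 136 before its other start. Slfn8 and Slfn9 held the same 10 letters, GAAAACGAAA, whereas Slfn5 held GAAAAAGAAA. The gamma-activated sequence TTCNNNGAA, an element of the interferon gamma response, was in none of the 7 members and in 7.02% of promoters. GAGGAA, the core bound by the myeloid factor PU.1, was present only in Slfn9 among the members, 170 bases before its start, and in 23.3% of promoters. CAGCTG, an E box of the kind bound by MyoD, was found 23 bases before the start of Slfn5 and 72 before that of Slfn8, and in 13% of promoters. None of these motifs overlapped in the members. A match is only a run of letters, and binding was not measured here.

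Differences between groups were taken as log2((Tet2 KO FPKM + 1) / (WT FPKM + 1)), which understates the change of low genes, over genes with a mean of at least 1 FPKM in the 2 groups. Of the 11692 genes that reached this mean, 243 were higher by 2-fold or more on this scale (2.08%) and 142 were lower (1.21%). 5 members reached the mean, 2 of them were higher by 2-fold, Slfn2 and AI662270, and 0 were lower. The median of the 5 members was 0.59 on this scale, and the median of all 11692 genes was -0.0044. Nothing is read from these counts, since the members were selected on the same contrast. Slfn3 lay just inside the minimum with a mean of 1.10 FPKM and Slfn5 just outside it with 0.980. Slfn1 and Slfn4 had means of 0.567 and 0.238 FPKM. Of the members that reached the mean, Slfn8 with 0.59 was the nearest below the 2-fold line and AI662270 with 1.58 the nearest above it.

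**Figure D1:**
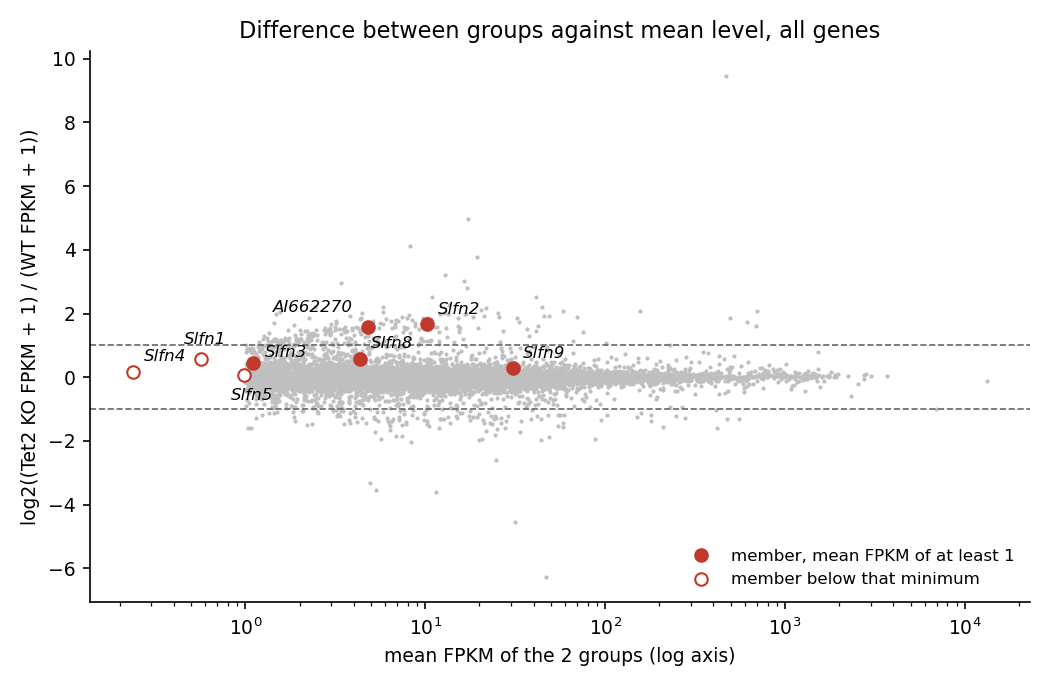
Each grey point is a gene with a mean of at least 1 FPKM, with the mean of the 2 groups on a log axis and log2((Tet2 KO FPKM + 1) / (WT FPKM + 1)) on the vertical axis, and dashed lines at 2-fold. Red points are the 5 members that reached the minimum and open circles the 3 that did not. All 8 lie above 0, with Slfn2 at 1.66 and AI662270 at 1.58 above the upper line.

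The counting error behind each value was estimated from the values themselves. For 2666 genes with a single annotated transcript, FPKM was multiplied by the transcript length less 210 bases, expressed in kilobases. The product moved in steps of 0.0178 in Tet2 KO and 0.0174 in WT, the worth of 1 fragment. The low values lay within 0.1 of a whole number of steps for 98.9% of 615 genes in Tet2 KO and 97.3% of 807 genes in WT. These steps correspond to about 56200000 and 57500000 fragments on the scale of the deposited values. How the libraries were combined and scaled was not given, so the depth of sequencing itself was not measured. The fragment numbers and 95% intervals given for the members rest on this step and on the longest annotated transcript (for Slfn1, whose ends in the table differ from the annotation, on 1857 bases), and they were added after the values had been seen. They cover counting error only, since fragments copied by PCR are not independent molecules and the spread between mice is not in them.

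Both short members were more than 3-fold higher in Tet2 KO. Slfn1, which slows the growth of T cells when overexpressed, had 0.873 FPKM in Tet2 KO against 0.260 in WT. About 81 and 25 fragments lay behind these levels, and the ratio was 3.35 with an interval from 2.09 to 5.42. Its log2 ratio with the pseudocount was 0.57, because both values were below 1 FPKM. Slfn2, the gene known for quiescence of T cells and monocytes, had 16.1 FPKM in Tet2 KO against 4.42 in WT. With about 1318 and 369 fragments, its ratio was 3.65, with an interval from 3.25 to 4.11. The intervals of Slfn1 and Slfn2 overlapped, so the 2 short genes could not be told apart in their ratio at this depth, although Slfn2 was the more abundant in both groups. On the log2 scale with the pseudocount, Slfn2 stood at 1.66, the 99.4th percentile of the 11692 genes.

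The intermediate members were both low. Slfn3 had 1.42 FPKM in Tet2 KO against 0.783 in WT, from about 128 and 72 fragments. The ratio of Slfn3 was 1.81, with an interval from 1.35 to 2.46. Slfn4, which is known to be induced in activated macrophages and other myeloid cells, was the lowest member in both groups, with 0.310 FPKM in Tet2 KO against 0.166 in WT. Its 65 and 36 estimated fragments gave a ratio of 1.87 and an interval from 1.21 to 2.86. Slfn3 and Slfn4 therefore had close ratios with overlapping intervals, from 36 to 128 estimated fragments per value.

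The long members Slfn5, Slfn8 and Slfn9 had the lowest ratios of the deposited values, although the interval of Slfn8 overlapped those of Slfn3 and Slfn4. Slfn5, an interferon-induced member, had 1.02 FPKM in Tet2 KO against 0.936 in WT, from about 223 and 208 fragments. Its ratio of 1.09 had an interval from 0.904 to 1.33, which includes 1, and a difference between the pooled values was not detectable at this depth. Slfn8 had 5.43 FPKM in Tet2 KO against 3.28 in WT. The ratio of Slfn8 was 1.66, from about 1159 and 716 fragments, with an interval from 1.51 to 1.82. Slfn9 was the most abundant member in both groups, with 33.7 FPKM in Tet2 KO against 27.6 in WT. Its ratio of 1.22 rested on about 8172 and 6840 fragments, with an interval from 1.18 to 1.26. The interval of Slfn8 lay above that of Slfn9, as a description of the pooled values that leaves out the spread between libraries.

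AI662270, the noncoding neighbour, had 7.73 FPKM in Tet2 KO against 1.93 in WT, a ratio of 4.01 from about 529 and 135 fragments, with an interval from 3.31 to 4.88. This interval overlapped those of Slfn1 and Slfn2. Its log2 ratio with the pseudocount was 1.58, at the 99.3rd percentile of all genes. GENCODE vM1 lists 3 transcripts for it and types it as a processed transcript, with the longest of 1428 bases in 4 exons.

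**Figure D2:**
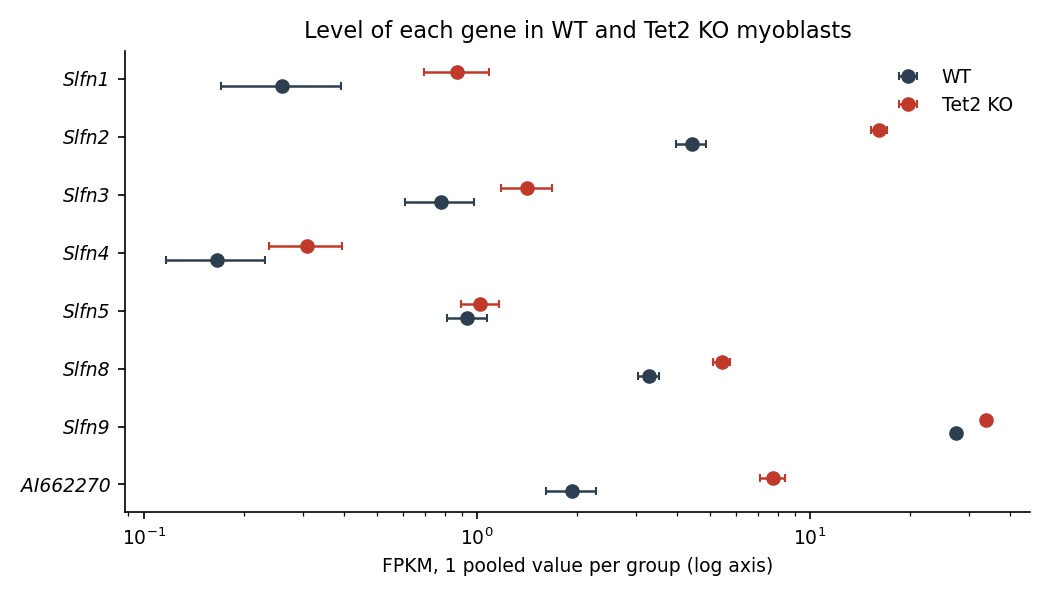
Points give the deposited FPKM of each gene on a log axis, with 1 pooled value per group, red for Tet2 KO and dark blue for WT, and bars give the 95% counting interval from the estimated fragments. The red point lies to the right of the dark point in all 8 genes, and the bars overlap for Slfn5.

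The order of the levels was nearly the same in both groups. In WT, from the highest, it was Slfn9, Slfn2, Slfn8, AI662270, Slfn5, Slfn3, Slfn1 and Slfn4. In Tet2 KO it was Slfn9, Slfn2, AI662270, Slfn8, Slfn3, Slfn5, Slfn1 and Slfn4. AI662270 thus stood below Slfn8 in WT and above it in Tet2 KO, and Slfn5 stood above Slfn3 in WT and below it in Tet2 KO. Neighbours whose counting intervals overlapped were Slfn5 and Slfn3 in WT, Slfn1 and Slfn4 in WT, and Slfn5 and Slfn1 in Tet2 KO. The highest member exceeded the lowest 166-fold in WT and 109-fold in Tet2 KO.

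The makeup of the family differed between groups. Summed over the 7 Schlafen members, the level was 58.9 FPKM in Tet2 KO against 37.4 in WT. Slfn9 made up 73.7% of the sum in WT and 57.2% in Tet2 KO, whereas Slfn2 made up 11.8% in WT and 27.4% in Tet2 KO. Slfn9 exceeded Slfn2 6.24-fold in WT and 2.09-fold in Tet2 KO. It exceeded Slfn8 8.40-fold in WT and 6.20-fold in Tet2 KO. Without Slfn9 the sum was 25.2 FPKM in Tet2 KO against 9.84 in WT, a ratio of 2.56.

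4 other rows of the table carry Schlafen names. Slfn10-ps, listed as a pseudogene by its name and as protein coding in GENCODE vM1, lies between Slfn8 and Slfn2 and had 3.33 FPKM in Tet2 KO against 2.54 in WT, a ratio of 1.31. Slfn14 had 0.0407 and 0.0302 FPKM. Slfn5os, antisense at the Slfn5 locus, had 0.0486 FPKM in Tet2 KO against 0.186 in WT, and the kit used for these libraries does not keep the strand. Slfnl1, a Schlafen-like gene on chromosome 4, had 0.263 and 0.248 FPKM. Slfn10-ps was thus near Slfn9 in its ratio, and the other 3 were below 0.3 FPKM in both groups.

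How firmly a fragment can be given to 1 member depends on how alike their sequences are. Slfn3 and Slfn4 shared 95.3% of 1524 aligned coding bases, with an identical run of 95 bases. Slfn8 and Slfn9 shared 92.7% of 2733 bases, with an identical run of 139. Slfn10-ps shared 92.9% with Slfn8 and 93.6% with Slfn9, where the identical run reached 236 bases. The short genes Slfn1 and Slfn2 shared 70.5%, with no identical window of 50 bases. Slfn2 and Slfn4, from different subgroups, shared a run of 101 bases. The likeness of the long genes can be seen in the first 60 coding bases of Slfn8 and Slfn9, where capitals mark the 10 bases that differ.
Slfn8: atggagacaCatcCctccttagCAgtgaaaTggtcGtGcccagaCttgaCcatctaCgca
Slfn9: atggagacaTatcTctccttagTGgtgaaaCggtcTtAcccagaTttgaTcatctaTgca

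Copies were also searched across the mm9 genome at 95% identity or more over at least 50 bases. A copy elsewhere covered 98.3% of the coding bases of Slfn3, 64.7% of Slfn4, 33.3% of Slfn2, 26.9% of Slfn8 and 26.9% of Slfn9. No alignment of Slfn1 or Slfn5 as a whole met this identity, although Slfn1 shared an identical run of 60 bases with Slfn4. Every copy found lay in or beside the cluster. The level of Slfn3 is therefore uncertain against that of Slfn4, and the ratios of Slfn8, Slfn9 and Slfn10-ps could be mixed in part, since how the authors' program split shared fragments among these genes was not tested.

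Genes around the cluster were examined to see whether the difference followed position. Within 500 kb of the members lay 34 other genes, of which 17 reached a mean of 1 FPKM. Of these, 4 were higher and 2 lower by 2-fold in Tet2 KO, beside 2.08% higher and 1.21% lower of all genes that reached this mean. Nle1, a ribosome assembly gene that flanks the cluster, had like values in both groups, with 15.7 FPKM in Tet2 KO against 15.5 in WT. The 4 higher genes lay at the far end, beyond Ccl5, a chemokine gene with 0.551 and 0.486 FPKM. Ccl6 had 30.6 FPKM in Tet2 KO against 3.51 in WT, Ccl9 had 3.33 and 0.395 FPKM, and Ccl4 had 4.10 and 0.838 FPKM, all of them genes of chemokines made by myeloid cells. Wfdc17, a gene of a secreted protein of activated macrophages, had 19.3 FPKM in Tet2 KO against 2.51 in WT. Unc45b, which shares its reported locus with Slfn5, was lower in Tet2 KO with 6.33 against 13.8 FPKM, and AA465934 was lower with 1.66 against 61.3 FPKM. Between AI662270 and the chemokine genes lay Ap2b1, with 34.2 FPKM in Tet2 KO against 35.8 in WT, and Taf15, with 20.3 against 19.5.

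**Figure D3:**
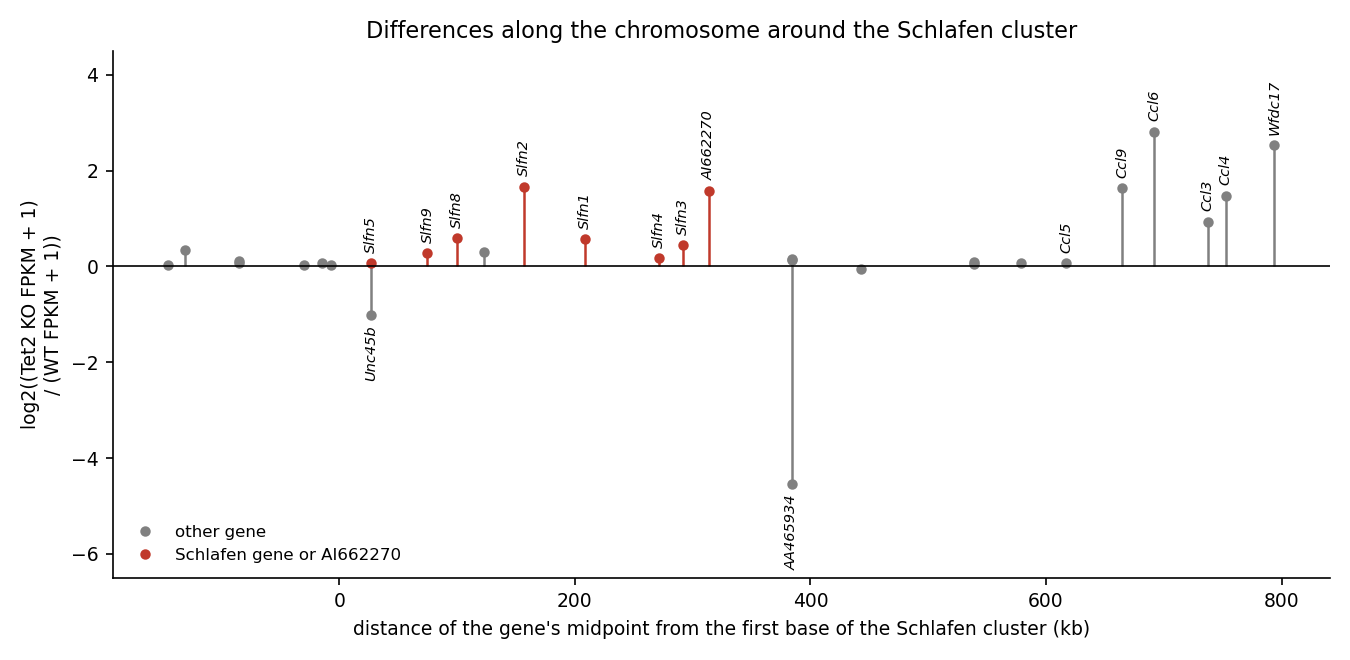
Each stem is a gene with a mean of at least 0.2 FPKM, with log2((Tet2 KO FPKM + 1) / (WT FPKM + 1)) as its height. Its place is the distance of its midpoint in kb from the first base of the cluster, taken as the start of the reported Slfn5 locus. Red stems are the 8 members, between 0.06 for Slfn5 and 1.66 for Slfn2. Ccl6 reaches 2.81 at the right and AA465934 -4.55.

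Interferon genes were examined because interferon induces much of the family. Type I interferons signal through Ifnar1 and Ifnar2, the kinases Jak1 and Tyk2, and factors such as Irf9. Of 13 ligands and receptors, 5 reached 1 FPKM, and 0 were higher or lower by 2-fold, with a median of 0.22 beside -0.0044 for all genes. The ligand genes Ifnb1, Ifng, Ifna1, Ifna2, Ifnl2 and Ifnl3 were listed at 0 in both groups. With the pseudocount, the largest ratios of this list were those of Ifngr2, with 13.2 FPKM in Tet2 KO against 10.3 in WT, and Il10rb, with 7.05 and 5.80 FPKM, and the smallest was that of Ifnar1, with 14.7 and 13.9 FPKM. Ifna4 was listed at 0 in Tet2 KO and had 0.0413 FPKM in WT, and the receptor gene Ifnlr1 had 0.0654 and 0.0230 FPKM. The receptors of type I and type II interferon were thus present, while ligand transcripts were at or near 0.

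All 15 signalling genes reached 1 FPKM, and their median was 0.15. 1 was higher by 2-fold, Irf5, a factor of the toll-like receptor response, with 5.31 FPKM in Tet2 KO against 2.15 in WT. Next came Irf8, a factor of myeloid lineages, with 27.4 and 18.0 FPKM. The lowest ratio was that of Usp18, an inhibitor of the type I receptor, with 8.03 and 9.30 FPKM. Irf9, a factor of the direct route, had close values, with 30.7 FPKM in Tet2 KO against 31.3 in WT.

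Of 42 interferon-stimulated genes 40 reached 1 FPKM. 22 had a ratio above 0 and 18 below, 0 passed 2-fold in either direction, and the median was 0.05. With the pseudocount, Oas3, an antiviral sensor of double-stranded RNA, had the largest ratio, with 1.88 FPKM in Tet2 KO against 0.862 in WT, followed by the GTPase gene Gbp2 with 349 and 252 FPKM. Ifit1, an antiviral RNA-binding protein, had the smallest on that scale, with 8.59 and 10.7 FPKM. As ratios of the deposited values, without the pseudocount, these 40 genes ran from 0.767 to 2.19. The 5 intermediate and long members lay inside that range, while Slfn1, Slfn2 and AI662270 lay above it. The upper end was Oas3 alone, and the next ratio was that of Gbp2 with 1.38. Slfn3, Slfn4 and Slfn8, with 1.81, 1.87 and 1.66, lay between Gbp2 and Oas3, and only Slfn5 and Slfn9 lay below Gbp2. Slfn1, Slfn4 and Slfn5 did not reach the minimum applied to the 40 genes. Over all genes with a mean of at least 1 FPKM, 2.08% were higher and 1.21% lower by 2-fold with the pseudocount. The share of all genes inside the range was not computed, so nothing is read from this count.

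Leukocyte markers were set beside the members, since leukocytes express much of the family and the sort had removed cells with CD45 and CD11b. Of 18 myeloid markers 17 were in the table, all 17 reached 1 FPKM, and 14 were higher by 2-fold and 0 lower, with a median of 1.60. Their summed level was 548 FPKM in Tet2 KO against 140 in WT. Ptprc, the gene of CD45, had 5.67 and 1.36 FPKM, and Itgam, the gene of CD11b, had 10.1 and 2.09 FPKM, so transcripts of both sorted-out proteins were present in each group. With the pseudocount, the myeloid genes with the largest ratios were Lyz2, the lysozyme of macrophages and neutrophils, with 253 and 59.5 FPKM, and the actin regulator Coro1a with 27.0 and 6.12 FPKM. The smallest on that scale was that of Cd14, a coreceptor for bacterial lipopolysaccharide, with 3.80 and 1.61 FPKM. Of 14 neutrophil markers 12 reached 1 FPKM, 10 were higher by 2-fold and 0 lower, and the median was 1.83. Their summed level was 2059 FPKM in Tet2 KO against 579 in WT, with Ltf, a granule protein, at 71.0 and 11.7 FPKM, Ngp, another, at 94.8 and 21.5 FPKM, and Retnlg at 1.65 and 0.555 FPKM.

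Lymphocyte markers were low. None of 14 reached a mean of 1 FPKM, and their summed level was 3.62 FPKM in Tet2 KO against 2.45 in WT. Cd3e and Cd2 were listed at 0 in Tet2 KO, and Cd3d, Cd3g and Ms4a1 at 0 in WT. The highest levels of this list in Tet2 KO were those of Il7r, a cytokine receptor gene, with 1.14 FPKM in Tet2 KO against 0.247 in WT, and Lck, a kinase gene of T cells, with 1.09 and 0.880 FPKM.

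3 members lay within the span of the leukocyte ratios. Without the pseudocount, the 17 myeloid markers ran from 2.11-fold to 4.81-fold with a median of 4.01, and the 12 neutrophil markers from 2.97-fold to 6.07-fold. Slfn1 with 3.35, Slfn2 with 3.65 and AI662270 with 4.01 lay inside both ranges. Slfn3, Slfn4, Slfn5, Slfn8 and Slfn9, with ratios of 1.81, 1.87, 1.09, 1.66 and 1.22, lay below both. The counting intervals of Slfn3 and Slfn4, which reach 2.46 and 2.86, extended into the myeloid range, and that of Slfn1, which begins at 2.09, extended below both ranges. Slfn1, with a mean of 0.567 FPKM, did not reach the minimum applied to the markers. Of all genes that reached it, 2.08% were higher by 2-fold with the pseudocount, a measure unlike these ranges. The share of all genes inside either range was not computed. Nothing is read from the count of members in these ranges, since the members were selected on the same contrast.

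**Figure D4:**
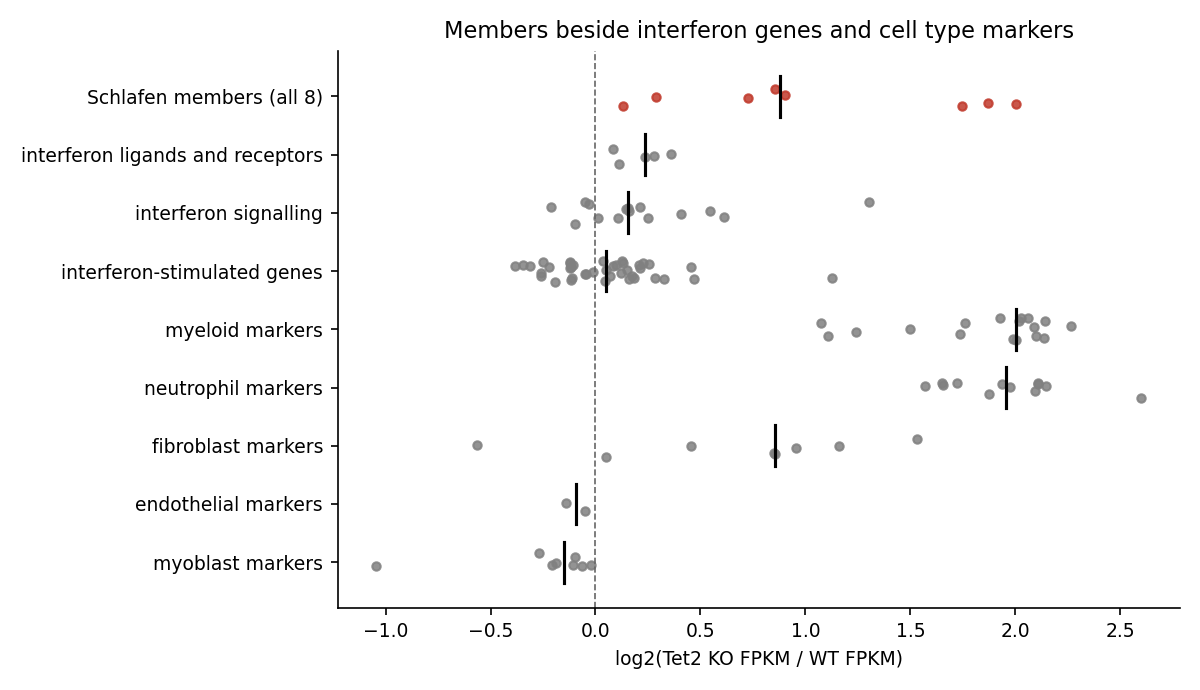
Points are genes with a mean of at least 1 FPKM, grouped by list, with log2(Tet2 KO FPKM / WT FPKM) on the horizontal axis and a black bar at each median, and the top row holds all 8 members in red without that minimum. The rightmost 3 members, Slfn1, Slfn2 and AI662270, lie among the myeloid and neutrophil markers and right of all interferon genes plotted.

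Ptprc differed 4.18-fold, so scaling to it restates the ratios above and is no further observation. On this scale Slfn1, Slfn2 and AI662270 had close values in both groups. Slfn2 was 2.85 times the level of Ptprc in Tet2 KO and 3.26 times in WT, AI662270 was 1.36 and 1.42 times, and Slfn1 was 0.154 and 0.192 times. Slfn9 was 5.94 times the level of Ptprc in Tet2 KO and 20.3 times in WT, and Slfn8 was 0.958 and 2.42 times. Slfn5 was 0.181 and 0.690 times, Slfn3 was 0.250 and 0.577 times and Slfn4 was 0.0547 and 0.122 times. The intermediate and long members were thus lower on this scale in Tet2 KO, as their ratios were below that of Ptprc. The part that leukocyte RNA has in the levels of the members was not tested. In RNA of bulk cultures, a smaller number of cells of a type cannot be told apart from less RNA per cell.

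Other cell types were described by the same means. All 8 myoblast markers reached 1 FPKM in both groups and 1 was lower by 2-fold, Myog, the gene of myogenin, with 268 FPKM in Tet2 KO against 554 in WT. Pax7, the satellite cell factor, had a log2 ratio of -0.02, and Itga7, the integrin used in the sort, had 190 and 199 FPKM. Of 9 fibroblast markers 8 reached 1 FPKM, with a median log2 ratio of 0.64 and 7 of them above 0, and 1 was higher by 2-fold, the microfibril gene Mfap5 with 3.27 and 1.13 FPKM, followed by the proteoglycan gene Dcn with 7.04 and 3.15 FPKM, while Postn had 6.05 and 8.95 FPKM. Only 2 of 8 endothelial markers reached 1 FPKM, Pecam1 with 1.48 and 1.63 FPKM and Egfl7 with 4.65 and 4.82 FPKM. Tet2 itself had 5.79 FPKM in Tet2 KO against 6.64 in WT over all its exons, which does not show the deleted exon. Ly6a, the gene of the sorted-out Sca1, had 288 and 278 FPKM, and the cyclin gene Ccnd1, set beside a family known for control of growth, had 263 and 218 FPKM.

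Genes with levels most like those of a member were found by distance on the log2(FPKM + 1) scale over the 2 pooled values, which makes this a description of only 2 numbers. For Slfn9 they were Il18rap, a subunit of the interleukin-18 receptor, with 33.5 FPKM in Tet2 KO against 27.4 in WT, the transcription factor gene Cebpd with 33.2 and 27.4 FPKM, and the histone gene H2afj with 33.3 and 27.3 FPKM. They lay among 187 genes within a distance of 0.2, so this pattern was common. The same search for Slfn2 and AI662270 was added after their values had been seen. Nearest to Slfn2 were Alox5ap, a gene of leukotriene synthesis, with 15.6 and 4.84 FPKM, Ptx3, a soluble pattern receptor, with 17.3 and 4.12 FPKM, and Lcp1, a leukocyte actin-bundling protein, with 16.1 and 3.94 FPKM, among 7 genes within 0.2. Nearest to AI662270 were Ifitm6 with 7.81 and 1.92 FPKM, Mcub with 8.12 and 1.98 FPKM and the monocyte chemokine receptor gene Ccr2 with 8.01 and 1.78 FPKM, among 11 genes within 0.2.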

How the data were processed

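RNA of 4 libraries, 2 per group, was made with the TruSeq RNA Library Preparation Kit. Per the study's methods, the authors checked reads with FastQC, removed adapters and reads of low quality, mapped the pairs to mm9 with TopHat2 (version 2.0.13), and estimated FPKM with Cuffdiff (version 2.2.1). The gene annotation and the way in which libraries were combined were not given in the sources used here. The deposited FPKM values, 1 per gene and group, were the only values used. The table also holds the authors' own fold change, test statistic, p-value, q-value and call for each gene, none of which was used. Starts, counted from 0 in the table, were raised by 1.

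Computed here were log2 ratios with a pseudocount of 1 over genes with a mean of at least 1 FPKM, and calls at 2-fold. With 1 value per group no test across replicates was possible. The members and the gene lists were chosen with earlier results of these data known. Named genes were every member, other rows with Schlafen names, the 2 highest and the lowest ratio of each list, neighbours past 2-fold, the 3 genes nearest to the most abundant member, and checks of genotype and sort. Irf9, Nle1, Ap2b1, Taf15, Ccl5, Il7r, Lck, Ifna4, Ifnlr1 and the sex-linked genes were added after their values had been seen. Transcripts came from GENCODE vM1 of the same build, aligned with Biopython 1.88 (match 1, mismatch -1, gap opening -4, extension -1, free ends), and copies were searched with BLAST+ 2.17.0. Counting intervals were exact (Poisson for a level, Clopper-Pearson for a ratio). Ratios, steps and intervals were tested on simulated data. The scripts ran under Python 3.11.15 with pandas 2.3.3, numpy 2.4.6, matplotlib 3.10.9 and scipy 1.17.1.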

Additional observations from a re-analysis of the deposited data

How the results depend on the processing

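No member passed 2-fold lower under any alternative tried. The 2 members higher by 2-fold became 1 at 3-fold, at a mean of at least 5 FPKM and without AI662270. The median of the members, 0.59, moved to 0.97 at a mean of at least 5 FPKM, where 2 members were left, to 0.85 at a pseudocount of 0.01 and to 0.78 at a pseudocount of 0.1. Over all genes, the 243 higher became 435 at 1.5-fold, 81 at 3-fold and 109 at a mean of at least 5 FPKM. The 142 lower became 338 at 1.5-fold, 25 at 3-fold, 224 at a pseudocount of 0.01 and 215 at a pseudocount of 0.1. Rescaling each group to a sum of 1000000 gave a member median of 0.64, over the 7 members that then reached the minimum. On that scale the log2 ratio of AI662270 was 1.74 and that of Slfn3 was 0.56. Neither this rescaling nor centring on the median of all genes moved a count by more than 1.5-fold.

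No paired analysis was possible because the table gives 1 value per group, and for the same reason no library could be left out in turn. Depth limited Slfn1, Slfn3 and Slfn4, whose values rest on 25 to 128 estimated fragments, and the interval of the ratio of Slfn5 included 1. The spread between mice is unknown for every value.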
